A study of Homo sapiens with 12 samples.

Results

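The genes described here set the G1 brake and accelerator of the cell cycle: the inhibitors of cyclin-dependent kinases CDKN1A, CDKN1B, CDKN1C, CDKN2C and CDKN2D, the D-type cyclins CCND1, CCND2 and CCND3, and their partner kinases CDK4 and CDK6. They were chosen by name as members of this pathway. Earlier results of these data were known at that point, and also when the lists of related genes below were chosen. Only probe sets listed with a single one of these symbols were used, and each gene was read from its brightest one, judged by its average on 12 arrays. Of the 10 genes, 9 were measured among 19775 genes in all, with 25 probe sets between them, and CDKN2C was not analysed here. RNA came from U937 cells, an established human leukemia line with monocyte-like features. The cells had been given the DMSO vehicle, or JS-K, a nitric oxide prodrug, for 90 min, 4 h or 24 h, with 3 biological replicates per group. The labels give no genotype or added allele for any group, no dose of JS-K and no exposure time for the vehicle cells. As all times were set against a single vehicle group, JS-K and time in culture cannot be told apart.

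D-type cyclins bind CDK4 and CDK6 and start the phosphorylation of the retinoblastoma protein, which releases E2F factors and lets a cell leave G1. Inhibitors of the CIP/KIP family (p21, p27 and p57, encoded by CDKN1A, CDKN1B and CDKN1C) bind cyclin and kinase together, chiefly block CDK2 complexes, and can also help D cyclins assemble with CDK4 and CDK6. Inhibitors of the INK4 family, to which CDKN2D (p19) belongs, bind CDK4 and CDK6 alone and keep the D cyclins off. In myeloid cells these genes are known as switches between proliferation and differentiation.

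Among the inhibitors, CDKN1A rose at all 3 times, to 46.4-fold at 24 h, and CDKN2D rose 4.18-fold at 24 h. Of the D cyclins, CCND3 rose 3.13-fold at 24 h while CCND2 fell 5.14-fold, and CCND1 stayed at low signal. With the probe sets of a gene averaged, dim ones included, the log2 differences at 24 h were smaller for CDKN2D (1.06, against 2.06 from the brightest), CCND3 (0.84, against 1.65) and CCND2 (−1.20, against −2.36), and all 3 were called. CDK4 fell 2.74-fold and CDK6 1.72-fold at 24 h. CDKN1B, abundant in every group, had group means no more than 0.36 log2 units apart.

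The stretches before the start sites of 3 genes follow, because CDKN1A and CDKN2D rose together at 24 h while CDK4 fell. Each runs 5′ to 3′ on the strand of its gene, from 250 bases before to 50 bases after the RefSeq start in GRCh38.p14. Capitals mark the motifs searched on both strands, GGGCGG (the GC box) and CACGTG (the E-box), so CCGCCC is a GC box on the other strand. TGANTCA (a form of the AP-1 site) and TATAAA (a form of the TATA box) were also searched.
CDKN1A, chr6:36678464-36678763, plus strand: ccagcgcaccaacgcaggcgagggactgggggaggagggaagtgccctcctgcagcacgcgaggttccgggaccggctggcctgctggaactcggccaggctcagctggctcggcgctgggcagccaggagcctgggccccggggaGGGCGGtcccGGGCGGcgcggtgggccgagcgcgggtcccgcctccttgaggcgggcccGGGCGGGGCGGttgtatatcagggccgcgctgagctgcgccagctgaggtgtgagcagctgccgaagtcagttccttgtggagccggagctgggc
CDKN2D, chr19:10568930-10569229, minus strand: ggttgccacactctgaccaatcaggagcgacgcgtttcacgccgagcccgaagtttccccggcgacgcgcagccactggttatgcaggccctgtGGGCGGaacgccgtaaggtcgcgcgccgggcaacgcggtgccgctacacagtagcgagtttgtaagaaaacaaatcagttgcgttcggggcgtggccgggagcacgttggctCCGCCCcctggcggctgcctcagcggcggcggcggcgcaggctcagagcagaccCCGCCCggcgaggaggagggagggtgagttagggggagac
CDK4, chr12:57752261-57752560, minus strand: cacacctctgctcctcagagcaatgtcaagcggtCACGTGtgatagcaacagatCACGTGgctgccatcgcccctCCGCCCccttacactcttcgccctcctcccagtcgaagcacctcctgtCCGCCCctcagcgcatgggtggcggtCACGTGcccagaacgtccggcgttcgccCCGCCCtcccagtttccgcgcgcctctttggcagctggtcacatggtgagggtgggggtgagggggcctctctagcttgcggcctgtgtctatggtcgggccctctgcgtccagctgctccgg
The CDKN1A window holds 4 GC boxes, the last 2 of which overlap, and its GC content is 74.3%. The CDKN2D window holds 3 GC boxes (68% GC) and the CDK4 window 3 GC boxes and 3 E-boxes (66% GC), against a median GC content of 58.7% over all 35116 windows. A GC box is in 45% of all windows, an E-box in 7.26%, TGANTCA in 7.71% and TATAAA in 11.5%. RefSeq windows were at hand for 6 of the genes, 9 windows in all, and neither TGANTCA nor TATAAA was in these 9. Other forms of the AP-1 site and TATA box were not searched. A match of letters is a description of the window and no evidence of binding.

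All levels below are log2 values that the authors made with GCRMA, and a value under 4 is called low signal, since 51.7% of all genes have a mean under it. Replicate 2 of the 4 h group stood apart. It had the highest array median of the series (3.10, against 2.84 to 2.99 on the other 11 arrays), the lowest upper quartile (6.20) and the widest 3' minus 5' difference of ACTB (1.15). Poly-A spikes, control transcripts added before labelling, averaged 3.04 in vehicle, 3.08 at 90 min, 7.02 at 4 h and 8.47 at 24 h. This control thus set the 4 h and 24 h arrays apart from those of vehicle and 90 min. Hybridisation spikes, which are added after labelling, averaged 11.70 at 24 h, against 9.96 in vehicle, the 28S rRNA probe sets 8.03 at 24 h, against 6.59 in vehicle, and the 3' minus 5' difference of GAPDH 0.13 at 24 h, against 0.00 in vehicle. The 24 h arrays thus stood apart in these controls, and the 4 h arrays in the poly-A spikes. The part of these controls in the differences below cannot be told apart from that of JS-K, and was not tested. Subtracting array medians moved the median of all genes by −0.10 at 4 h and by −0.10 at 24 h, each against vehicle. The cells carried their labelled lineage: of 6 measured myeloid markers 5 (LYZ, CSF1R, ITGAM, SPI1 and CD4) averaged at least 4 in every group. MPO lay at 2.37 to 2.44. The T cell, B cell, erythroid and epithelial markers measured all averaged under 4, and of 4 fibroblast markers COL1A1 alone was above it (5.09 to 5.37).

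Differences were fitted with limma over all 12 arrays and are given ± SE, with p-values adjusted by the Benjamini-Hochberg method over all 19775 genes, and a gene is called at an adjusted p under 0.05. Levels are means ± SD of 3 arrays. At 90 min 2 of the 9 genes were called, both higher, where 9.64% of all genes were called, 4.03% higher and 5.62% lower. At 4 h the count was 6, with 4 higher and 2 lower, where 40.6% of all genes were called (23.9% higher and 16.6% lower). At 24 h it was 7, with 4 higher and 3 lower, where 36.7% were called (17.8% higher and 18.9% lower). Between 4 h and 90 min 3 genes were called, 2 higher and 1 lower, where 10.6% of all genes were called (3.33% higher and 7.25% lower). Between 24 h and 4 h 6 were called, 3 higher and 3 lower, where 23.5% of all genes were called (12.8% higher and 10.7% lower). A moderated F test over the 4 groups called 8 of the 9, all but CCND1, and 38.1% of all genes. The median difference of the 9 genes at 24 h was 0.09, against 0.06 over all genes, with rises and falls mixed. That of the 9 is the value of CCND1, which was at low signal. Over genes with a mean of at least 4 the median at 24 h was −0.09, so 0.06 partly reflects genes at low signal. Without 4 h replicate 2 in the fit, the counts were 3, 4 and 9 against vehicle at 90 min, 4 h and 24 h, 3 for 4 h against 90 min and 5 for 24 h against 4 h.

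**Figure D1:**
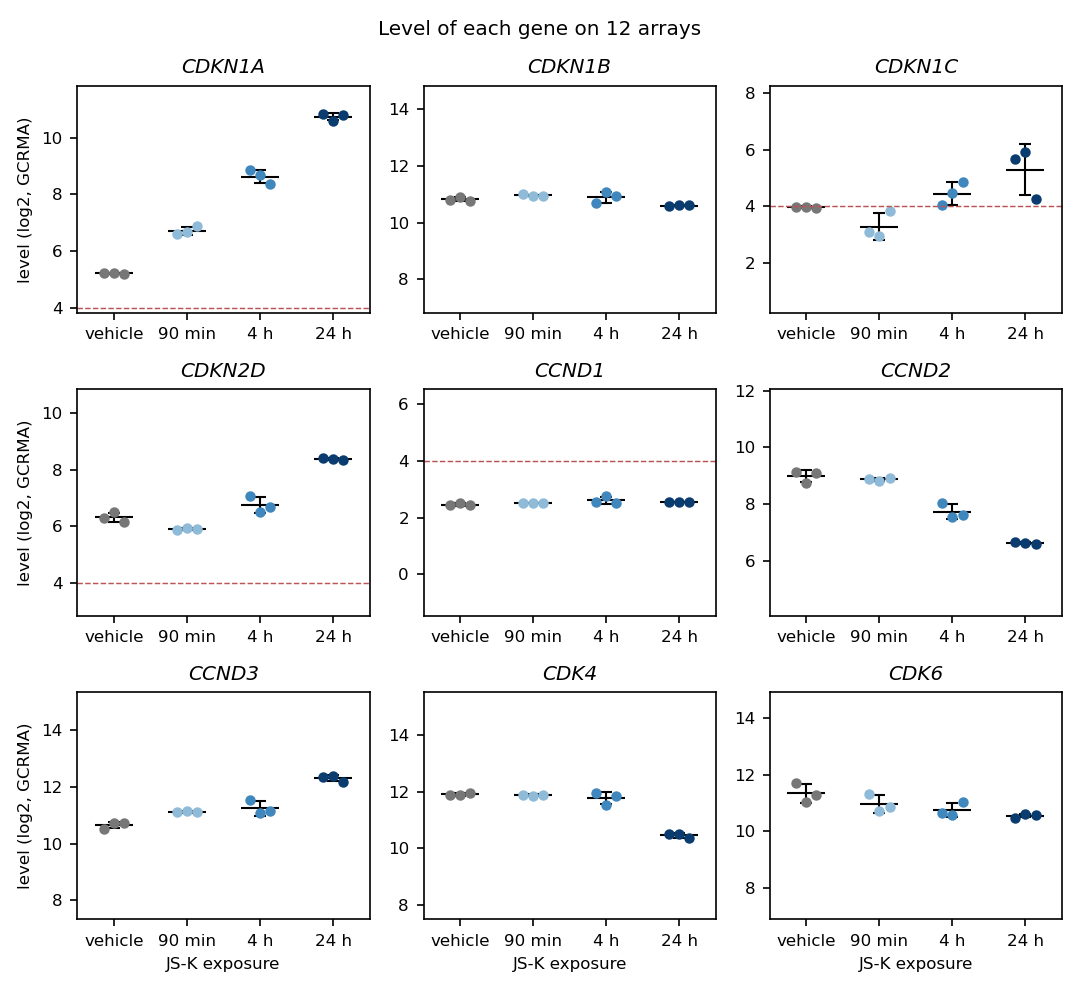
Level of each of the 9 genes (log2, GCRMA) on every array, grouped as vehicle and the 3 exposures to JS-K. Points are arrays, bars are the mean ± SD of 3 arrays, and the dashed line marks 4, under which signal is low. All panels span the same range of log2 units; CDKN1A climbs at every time to 10.75 at 24 h, CCND2 falls to 6.62 and CCND1 stays near 2.5.

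CDKN1A encodes p21, an inhibitor of CDK2 complexes known as the main p53-induced brake of the cell cycle and as a gene also raised without p53 during myeloid differentiation. Its levels were 5.21, 5.22 and 5.21 on the vehicle arrays, 6.59, 6.67 and 6.87 at 90 min, 8.85, 8.68 and 8.37 at 4 h, and 10.85, 10.60 and 10.80 at 24 h. The 4 groups were fully separated, each higher than the one before. CDKN1A rose 2.83-fold at 90 min (95% interval of the log2 difference 1.23 to 1.77, adjusted p = 1.31e-05), by 3.42 ± 0.13 at 4 h (10.7-fold, adjusted p = 4e-09) and by 5.54 ± 0.13 at 24 h (adjusted p = 1.92e-11). Among all 19775 genes these differences ranked 52, 11 and 9 from the highest. Each interval added a rise of its own, 1.92 ± 0.13 at 4 h over 90 min (adjusted p = 3.74e-06) and 2.12 ± 0.13 at 24 h over 4 h (adjusted p = 1.47e-07). The gene lies on chromosome 6 (36676463 to 36687332), and 1 probe set measures it, so no other probe set bears on it. Every alternative run kept these calls, with adjusted p of no more than 0.00151 at 90 min.

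CDKN1B encodes p27, the inhibitor of CDK2 that is mostly controlled through the stability of its protein. Its levels were 10.80, 10.91 and 10.77 on the vehicle arrays, 11.00, 10.94 and 10.96 at 90 min, 10.69, 11.07 and 10.96 at 4 h, and 10.58, 10.61 and 10.63 at 24 h. The 24 h arrays lay below all others, and the 4 h arrays spanned those of vehicle and 90 min. The differences from vehicle were 0.14 ± 0.08 at 90 min (adjusted p = 0.458), 0.08 ± 0.08 at 4 h (adjusted p = 0.422) and −0.22 ± 0.08 at 24 h (adjusted p = 0.0575, 95% interval −0.40 to −0.04). Of 18 alternatives, 7 called the last. Without 4 h replicate 1 the difference at 4 h was called (0.19, adjusted p = 0.0376). CDKN1B fell by 0.30 ± 0.08 at 24 h against 4 h (adjusted p = 0.0192), a call that ended without 4 h replicate 2 (−0.22, adjusted p = 0.0602) or 3 (adjusted p = 0.0729) and without 24 h replicate 1 (adjusted p = 0.0635) or 2 (adjusted p = 0.0521). It also ended with array weights (−0.16, adjusted p = 0.121), quantile normalization (adjusted p = 0.0523), the 6 arrays alone (adjusted p = 0.0854) and a minimum fold of 1.5, and 9 of 17 alternatives kept it. It lies on chromosome 12 (12717368 to 12722369) and has 1 probe set.

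CDKN1C encodes p57, the imprinted member of the CIP/KIP family. Its levels were 3.97, 3.99 and 3.94 on the vehicle arrays, 3.09, 2.94 and 3.81 at 90 min, 4.03, 4.45 and 4.84 at 4 h, and 5.67, 5.92 and 4.26 at 24 h. Vehicle and 90 min arrays were at low signal, and the 24 h arrays were all above vehicle but overlapped with those of 4 h because of replicate 3. CDKN1C rose at 24 h against vehicle (adjusted p = 0.0152). The fitted difference was 1.32 ± 0.38, whose size is uncertain because the vehicle arrays were at low signal. That call ended without 24 h replicate 1 (1.13, adjusted p = 0.0597) or replicate 2 (1.00, adjusted p = 0.0675). The differences at 90 min (−0.68 ± 0.38, adjusted p = 0.407) and at 4 h (0.47 ± 0.38, adjusted p = 0.29) did not pass, nor did that of 24 h against 4 h (0.84 ± 0.38, adjusted p = 0.154), which passed without 24 h replicate 3 (1.36, adjusted p = 0.00332). For 4 h against 90 min it was 1.16 ± 0.38 (adjusted p = 0.0761). Of its 5 probe sets, 4 average under 4. With every probe set tested on its own, 4 of the 5 were higher at 24 h, by 0.91 to 1.78, and the remaining one, at 2.10 to 2.15 in all groups, did not pass. The gene lies on chromosome 11 (2883218 to 2885775).

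CDKN2D encodes p19, the INK4 inhibitor that holds CDK4 and CDK6 apart from D cyclins. Its levels were 6.28, 6.50 and 6.16 on the vehicle arrays, 5.88, 5.93 and 5.91 at 90 min, 7.07, 6.49 and 6.69 at 4 h, and 8.42, 8.36 and 8.34 at 24 h. The 90 min arrays were the lowest and the 24 h arrays the highest, with neither overlapping any other group, while 4 h and vehicle overlapped through their second replicates. CDKN2D rose by 2.06 ± 0.15 at 24 h against vehicle (adjusted p = 2.11e-07) and by 1.63 ± 0.15 against 4 h (adjusted p = 3.88e-06). The rise of 0.84 ± 0.15 at 4 h over 90 min also passed (adjusted p = 0.00265). At 4 h the difference from vehicle was 0.44 ± 0.15 (adjusted p = 0.0418), a call that ended without vehicle replicate 1 (adjusted p = 0.114) or 3 (adjusted p = 0.111) or 4 h replicate 1 (0.28, adjusted p = 0.0848), or with array medians subtracted (0.33, adjusted p = 0.175). Without 4 h replicate 2 it was 0.57 (adjusted p = 0.0107). At 90 min it was −0.40 ± 0.15 and did not pass (adjusted p = 0.125), but did when 4 h replicate 2, which that comparison does not use, was left out of the fit (adjusted p = 0.0481). The gene lies on chromosome 19 (10566460 to 10568979). Its other probe set, at low signal with group means of 2.07 to 2.13, passed at 24 h with a difference of 0.05 ± 0.02 (adjusted p = 0.0367).

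CCND1 encodes cyclin D1, the D cyclin best known from epithelial and mantle cell tumours. Its levels were 2.43, 2.52 and 2.44 on the vehicle arrays, 2.51, 2.52 and 2.51 at 90 min, 2.54, 2.76 and 2.53 at 4 h, and 2.55, 2.56 and 2.55 at 24 h. All 12 arrays were at low signal, near the probe sets of trp, a control transcript with no spike (group means of 2.53 to 2.66), which were also highest at 4 h. The difference at 4 h passed the test (0.15 ± 0.05, adjusted p = 0.0444), though its size is that of the trp probe sets (2.66 at 4 h, against 2.53 in vehicle). It was 0.07 without 4 h replicate 2 (adjusted p = 0.0523), and the call also ended without vehicle replicate 1 (adjusted p = 0.128), 2 (adjusted p = 0.0535) or 3 (adjusted p = 0.108). The differences at 90 min (0.05 ± 0.05, adjusted p = 0.901) and 24 h (0.09 ± 0.05, adjusted p = 0.155) did not pass. Without 4 h replicate 2 in the fit, that at 24 h was called (adjusted p = 0.00551). Both probe sets of CCND1, on chromosome 11 (69641156 to 69654474), average under 4.

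CCND2 encodes cyclin D2, the D cyclin that blood cells raise on growth factor signals and a known target of MYC. Its levels were 9.12, 8.74 and 9.08 on the vehicle arrays, 8.89, 8.81 and 8.93 at 90 min, 8.04, 7.55 and 7.61 at 4 h, and 6.66, 6.62 and 6.57 at 24 h. Vehicle and 90 min arrays overlapped, 4 h lay below both, and 24 h lay below 4 h. CCND2 fell by 1.25 ± 0.13 at 4 h (2.37-fold lower, adjusted p = 3.51e-05) and by 2.36 ± 0.13 at 24 h (adjusted p = 3.28e-08), while at 90 min the difference was −0.10 ± 0.13 (adjusted p = 0.93). It fell by 1.14 ± 0.13 at 4 h against 90 min (adjusted p = 0.000195) and by a further 1.12 ± 0.13 at 24 h against 4 h (adjusted p = 4.67e-05). Among all genes the difference at 24 h ranked 141 from the lowest. Of the 4 probe sets of CCND2, on chromosome 12 (4273762 to 4305353), 3 average under 4. The brightest of these was also lower at 4 h (−1.23 ± 0.29, adjusted p = 0.0131) and at 24 h (−1.82 ± 0.29, adjusted p = 0.00044), with a mean of 3.10 at 24 h, against 4.92 in vehicle. For the mean of the 4 probe sets the difference of 4 h from 90 min was −0.40 and did not pass (adjusted p = 0.0993).

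CCND3 encodes cyclin D3, the D cyclin that is most widely expressed in blood cells and stays present in many differentiating ones. Its levels were 10.54, 10.72 and 10.75 on the vehicle arrays, 11.11, 11.16 and 11.12 at 90 min, 11.56, 11.07 and 11.14 at 4 h, and 12.37, 12.38 and 12.19 at 24 h. Every JS-K array lay above every vehicle array, the 90 min and 4 h arrays overlapped, and 24 h was above both. CCND3 rose by 0.59 ± 0.11 at 4 h (adjusted p = 0.00195) and by 1.65 ± 0.11 at 24 h (adjusted p = 1.36e-07), against vehicle in both cases. The rise of 0.46 ± 0.11 at 90 min passed (adjusted p = 0.0194) but ended without vehicle replicate 1 (adjusted p = 0.0801) or without 90 min replicate 1 (adjusted p = 0.0511), 2 (adjusted p = 0.0726) or 3 (adjusted p = 0.0594), and with array medians subtracted (adjusted p = 0.0986) or probe sets averaged (adjusted p = 0.0765). Between 4 h and 90 min the difference was 0.13 ± 0.11 (adjusted p = 0.373, 95% interval −0.11 to 0.37), and without 4 h replicate 1 it was −0.02. From 24 h against 4 h CCND3 rose by 1.06 ± 0.11 (adjusted p = 1.39e-05). Its other probe set, of the 2 on chromosome 6 (41934933 to 42050035), had group means of 2.06 to 2.12.

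CDK4 encodes the D cyclin kinase that most dividing cells use. Its levels were 11.87, 11.90 and 11.96 on the vehicle arrays, 11.89, 11.84 and 11.88 at 90 min, 11.96, 11.52 and 11.84 at 4 h, and 10.51, 10.50 and 10.35 at 24 h. The vehicle, 90 min and 4 h arrays overlapped and the 24 h arrays lay more than 1 log2 unit below them. CDK4 fell by 1.45 ± 0.09 at 24 h against vehicle (adjusted p = 7.87e-08) and by 1.32 ± 0.09 against 4 h (adjusted p = 5.01e-07). The differences from vehicle were −0.03 ± 0.09 at 90 min (adjusted p = 0.931, 95% interval −0.23 to 0.17) and −0.14 ± 0.09 at 4 h (adjusted p = 0.216, 95% interval −0.33 to 0.06). The last passed without 4 h replicate 1 (−0.23, adjusted p = 0.0456), and without 4 h replicate 2 it was −0.01. CDK4 lies on chromosome 12 (57747727 to 57752310) and has 1 probe set.

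CDK6 encodes the D cyclin kinase that predominates in blood progenitors. Its levels were 11.70, 11.02 and 11.28 on the vehicle arrays, 11.32, 10.72 and 10.85 at 90 min, 10.66, 10.56 and 11.03 at 4 h, and 10.48, 10.61 and 10.58 at 24 h. Vehicle arrays spread more widely than the 24 h arrays, all 3 of which lay below vehicle, and the other JS-K groups overlapped with vehicle. Each 90 min array lay below the vehicle array of the same number, a pairing that the fit did not use. CDK6 fell by 0.78 ± 0.18 at 24 h (adjusted p = 0.00454). At 4 h it differed by −0.59 ± 0.18 (adjusted p = 0.0345), a call that ended without vehicle replicate 1 (−0.40, adjusted p = 0.126) or 3 (adjusted p = 0.0725) or 4 h replicate 2 (adjusted p = 0.09), and at 90 min by −0.37 ± 0.18 (adjusted p = 0.318). No call was made for 4 h against 90 min (−0.22 ± 0.18, adjusted p = 0.366) or for 24 h against 4 h (−0.19 ± 0.18, adjusted p = 0.674).

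The 7 probe sets of CDK6, on chromosome 7 (92604921 to 92836573), give a further view of its fall. With each tested on its own, 6 were lower at 24 h, by 0.57 to 1.96, and the exception averages under 4. The steepest of them fell by 1.96 ± 0.29 (adjusted p = 0.000268) to a mean of 5.59 at 24 h, against 7.55 in vehicle. The second brightest was already lower at 90 min (−0.39 ± 0.09, adjusted p = 0.0358), then at 4 h (−0.73 ± 0.09, adjusted p = 0.00028) and at 24 h (−0.90 ± 0.09, adjusted p = 1.6e-05). From 24 h against 4 h, where the brightest did not pass, the steepest fell by 1.30 ± 0.29 (adjusted p = 0.00841) and another, with a mean of 5.45 at 24 h, against 6.55 at 4 h, by 1.10 ± 0.26 (adjusted p = 0.0112).

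**Figure D2:**
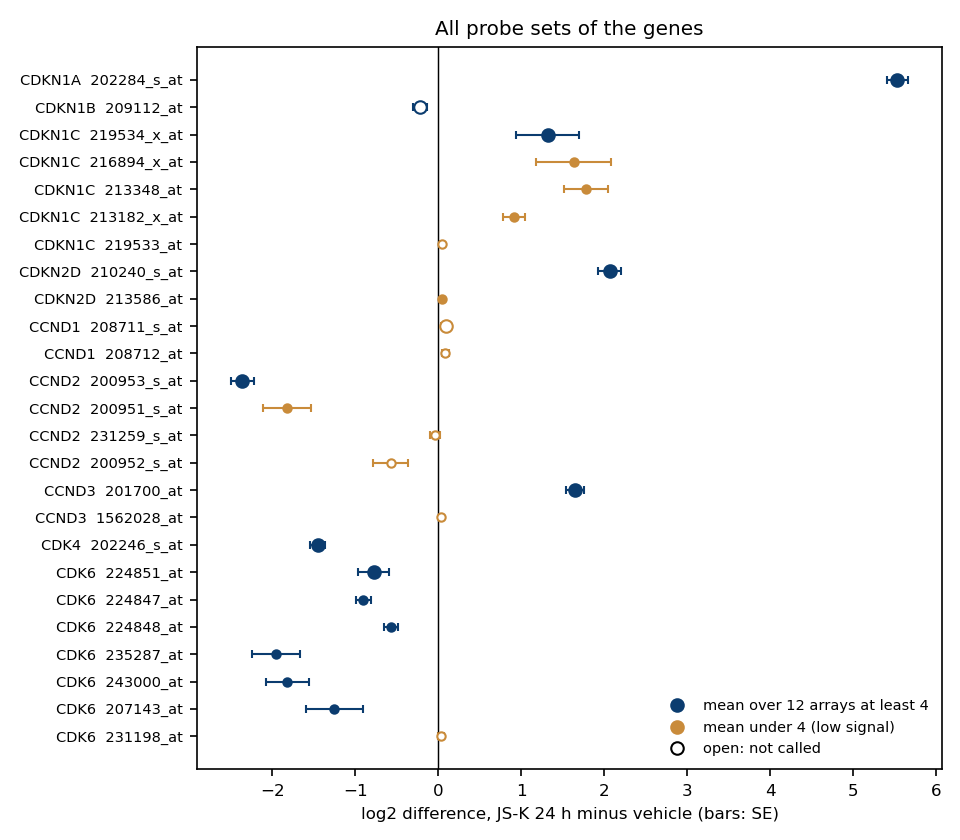
Log2 difference of 24 h of JS-K from vehicle (x axis, bars ± SE) for the 25 probe sets of the 9 genes. Large markers are the probe set that stands for the gene, orange marks a mean under 4 and open circles did not pass. Of the CDK6 probe sets 6 of 7 lie left of 0 and were called, and those of CCND3, CDKN2D and CDKN1C with almost no difference are orange.

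Set side by side, the genes fall into different time courses. CDKN1A moved at every step. CCND3 moved by 90 min, in a call that 11 of 18 alternatives kept, and again after 4 h. CCND2 moved between 90 min and 4 h and again after 4 h, and CDK4 only after 4 h among the steps tested. For CDKN2D the steps after 90 min and after 4 h were both called. The groups of arrays did not overlap for 5 of the 9 genes at 90 min (26.9% of all genes), 5 at 4 h (70.2%) and 9 at 24 h (82.3%), each against vehicle. The same held for 5 at 4 h against 90 min (51.7%) and 6 at 24 h against 4 h (28.4%). Most genes on the array were thus also separate from vehicle at 4 h and at 24 h, but not at 24 h against 4 h.

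**Figure D3:**
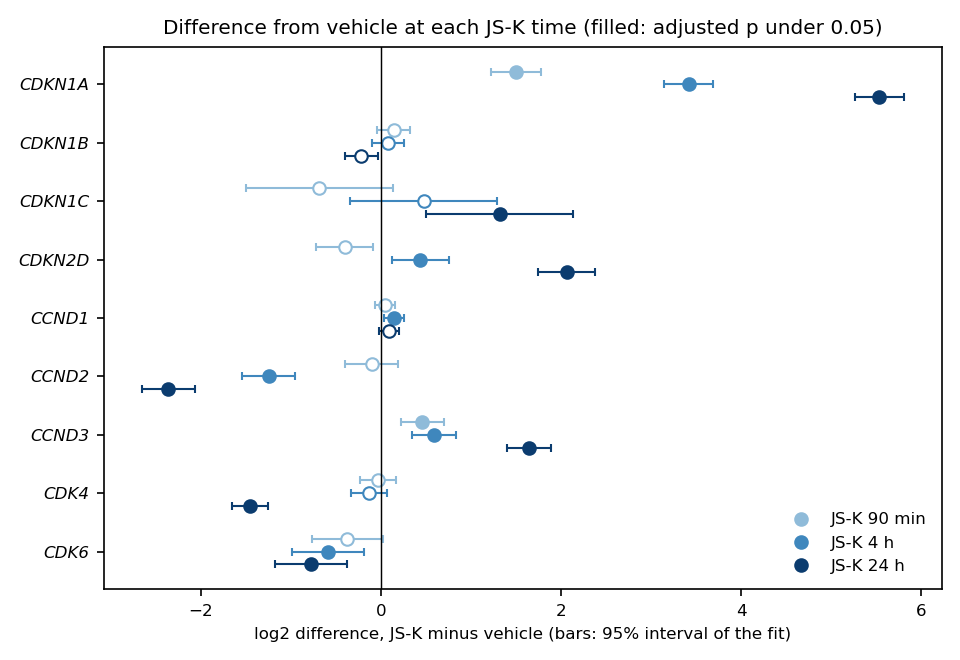
Log2 difference of each gene from vehicle (x axis) at each exposure, with the 95% interval of the fit. Filled points passed at an adjusted p under 0.05. CDKN1A, CDKN2D and CCND3 reach 5.54, 2.06 and 1.65 at 24 h, and CCND2 and CDK4 reach −2.36 and −1.45.

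Downstream of the D cyclin kinases, 17 genes of the CDK2, retinoblastoma and E2F axis were measured. At 90 min 2 were lower and 3 higher than in vehicle, where 9.64% of all genes were called in either direction, and at 4 h 5 were lower and 4 higher (median −0.16), where 40.6% were called. At 24 h 13 were lower and 1 higher (median −0.96, against 0.06 over all genes), where 18.9% of all genes were lower and 17.8% higher. CDC6, which loads the replicative helicase, fell by 3.54 ± 0.14 at 24 h to a mean of 4.76, against 8.30 in vehicle (adjusted p = 1.9e-09). CCNE1, the cyclin E that activates CDK2, fell by 3.19 ± 0.35 (adjusted p = 9.18e-06). Its level was 4.15 ± 0.82 at 24 h, against 7.34 ± 0.13 in vehicle. As the 24 h mean is near the low-signal limit of 4, the size is uncertain. CDC25A, the phosphatase that activates CDK2, fell by 1.87 ± 0.19 (adjusted p = 5.78e-06). E2F5, a repressor E2F, fell to a low signal of 3.58 at 24 h, against 5.66 in vehicle (adjusted p = 8.82e-06). RB1, the retinoblastoma gene, was the 1 gene that rose at 24 h (0.75, adjusted p = 0.000152), and is named after its value was seen. At 90 min RBL1, the retinoblastoma relative p107, rose by 0.56 ± 0.14 (adjusted p = 0.0231) and TFDP2, a partner of E2F factors, fell by 0.80 ± 0.20 (adjusted p = 0.0271). The difference of RBL1 from vehicle was 0.79 at 4 h (adjusted p = 0.00126) and −1.24 at 24 h (adjusted p = 1.26e-05). CCNE2, the other cyclin E, was likewise called in opposite directions at different times, 0.48 at 90 min (adjusted p = 0.0134), 1.15 at 4 h (adjusted p = 1.17e-05) and −1.15 at 24 h (adjusted p = 2.58e-06).

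Other CDK inhibitors and CDK-activating partners made up 10 genes. At 90 min 1 was higher and 1 lower than in vehicle, where 9.64% of all genes were called. At 4 h 2 were higher and 4 lower, where 40.6% were called, and at 24 h 3 were higher and 1 lower (median 0.04), where 36.7% were called. At 24 h against 4 h 7 were higher and 2 lower (median 0.38, against −0.01 over all genes), where 23.5% were called. Of these 7, CDKN2A, CDK7, CCNH and CDK5 had been called lower at 4 h and were not called against vehicle at 24 h. CDKN2B, the INK4 inhibitor p15, rose at 24 h to a mean of 5.86, against 2.76 in vehicle (adjusted p = 1.51e-08). The vehicle mean is close to the trp probe sets (2.53), so no fold is given. CDKN1A, CDKN1C and CDKN2D were called higher at the same time. CCNA2, the cyclin of S and G2 phase, rose by 0.96 ± 0.11 (adjusted p = 1.16e-05) and CDKN3, a phosphatase that acts on CDK2, by 0.83 ± 0.06 (adjusted p = 2.36e-07). CDC37, the chaperone that delivers CDK4 and CDK6, fell by 0.39 ± 0.10 (adjusted p = 0.00825). CDKN2A, which encodes p16 and ARF, was lower at 90 min (−0.34 ± 0.06, adjusted p = 0.00213) and at 4 h (−0.27 ± 0.06, adjusted p = 0.00376) but not called at 24 h (0.09, adjusted p = 0.183). CDK7, the kinase that activates other CDKs, fell by 0.56 ± 0.09 at 4 h (adjusted p = 0.000633).

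Genes for the ubiquitin ligases that remove p21, p27 and D cyclins numbered 14. At 90 min 1 was higher, 1 lower and 12 not called, where 4.03% of all genes were higher and 5.62% lower. At 4 h 7 were lower and 7 not called (median −0.29), where 16.6% of all genes were lower. At 24 h 9 were lower and 3 higher (median −0.35), where 18.9% of all genes were lower and 17.8% higher. SKP2, the subunit that recognises p27, fell by 0.78 ± 0.07 at 4 h (adjusted p = 7.73e-06) and by 1.21 ± 0.07 at 24 h (adjusted p = 3.75e-08). DTL, which directs the ligase that destroys p21 in S phase, fell by 2.11 ± 0.08 at 24 h to a mean of 9.01, against 11.12 in vehicle (adjusted p = 1.16e-09). FBXO4, reported as a subunit that recognises cyclin D1, fell by 1.20 ± 0.23 (adjusted p = 0.000946). CDC20, an activator of the mitotic ligase that also acts on p21, rose by 1.22 ± 0.08 (adjusted p = 8.54e-08). CUL1, the scaffold of the SKP2 ligase, fell by 0.63 ± 0.12 at 4 h (adjusted p = 0.00199).

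Of 25 genes listed as transcriptional regulators of CDKN1A, CDKN1B and the D cyclins, 22 were measured. At 90 min 7 were higher and 1 lower (median 0.11), where 4.03% of all genes were higher and 5.62% lower. At 4 h 11 were higher and 5 lower (median 0.25), where 23.9% and 16.6% of all genes were, and at 24 h 10 and 4 (median 0.35), where 17.8% and 18.9% were. MYC, which represses CDKN1A and activates CCND2 in many cells, fell by 4.31 ± 0.08 at 24 h, to a mean of 8.18, against 12.49 in vehicle (adjusted p = 4.31e-12). MXD1, which competes with MYC for its partner MAX, was 2.46 ± 0.10 higher at 90 min (adjusted p = 3.03e-08) and 2.40 ± 0.10 higher at 24 h (adjusted p = 3.16e-09). KLF6, a zinc finger factor reported to activate CDKN1A, kept a difference of 2.40 ± 0.07 at both times (adjusted p = 1.53e-09 at 90 min and 1.59e-10 at 24 h). JUN, a subunit of AP-1, was 3.14 ± 0.08 higher at 24 h (adjusted p = 7.27e-11). FOS, its partner, was 3.29 ± 0.34 higher at 90 min, with a mean of 8.56, against 5.27 in vehicle (adjusted p = 7.33e-05).

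Targets of p53 other than CDKN1A were called in both directions. Of 22 listed and 19 measured, 2 were higher and 3 lower at 90 min, 4 and 5 at 4 h, and 6 and 5 at 24 h (median 0.05, against 0.06 over all genes). That median is the value of TP53INP1, at low signal (2.44 at 24 h) and named after its value was seen. Over all genes 9.64%, 40.6% and 36.7% were called at 90 min, 4 h and 24 h in either direction. RRM2B, a subunit of ribonucleotide reductase, rose by 0.66 ± 0.07 at 90 min (adjusted p = 0.000105), 0.98 ± 0.07 at 4 h (adjusted p = 1.37e-06) and 2.13 ± 0.07 at 24 h (adjusted p = 5.32e-10). PMAIP1, which encodes the BH3-only protein NOXA, rose by 1.59 ± 0.13 at 24 h (adjusted p = 6.57e-07) and the death receptor gene TNFRSF10B by 0.74 ± 0.06 (adjusted p = 5.35e-07). XPC, a sensor of DNA damage, fell by 0.85 ± 0.16 (adjusted p = 0.00108). GADD45A, a growth arrest gene, fell by 1.31 ± 0.21 at 90 min (adjusted p = 0.00192), and CCNG1, cyclin G1, by 0.57 ± 0.06 (adjusted p = 5.1e-05).

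Of 20 genes of S phase and mitosis, 7 were higher at 90 min, 8 higher and 5 lower at 4 h, and 11 higher and 7 lower at 24 h (median 0.56). Over all genes 4.03% were higher at 90 min, 23.9% higher and 16.6% lower at 4 h, and 17.8% higher and 18.9% lower at 24 h. The 7 that fell at 24 h were PCNA and the 6 MCM genes listed, named after their values were seen: MCM3 fell by 2.44 ± 0.10 (adjusted p = 2.42e-09), MCM2 by 2.35 ± 0.09 (adjusted p = 1.97e-09) and MCM5 by 1.78 ± 0.10 (adjusted p = 2.2e-08), subunits of the replicative helicase. PLK1, the kinase of mitotic entry, rose by 2.03 ± 0.10 to a mean of 10.58 at 24 h, against 8.55 in vehicle (adjusted p = 1.07e-08). At 90 min MKI67, the proliferation antigen Ki-67, was 0.54 ± 0.07 higher (adjusted p = 0.000514) and AURKA, a mitotic kinase, 0.41 ± 0.05 higher (adjusted p = 0.000135). As the samples are bulk cultures, a change in the share of cells in a phase and a change of RNA per cell cannot be told apart.

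**Figure D4:**
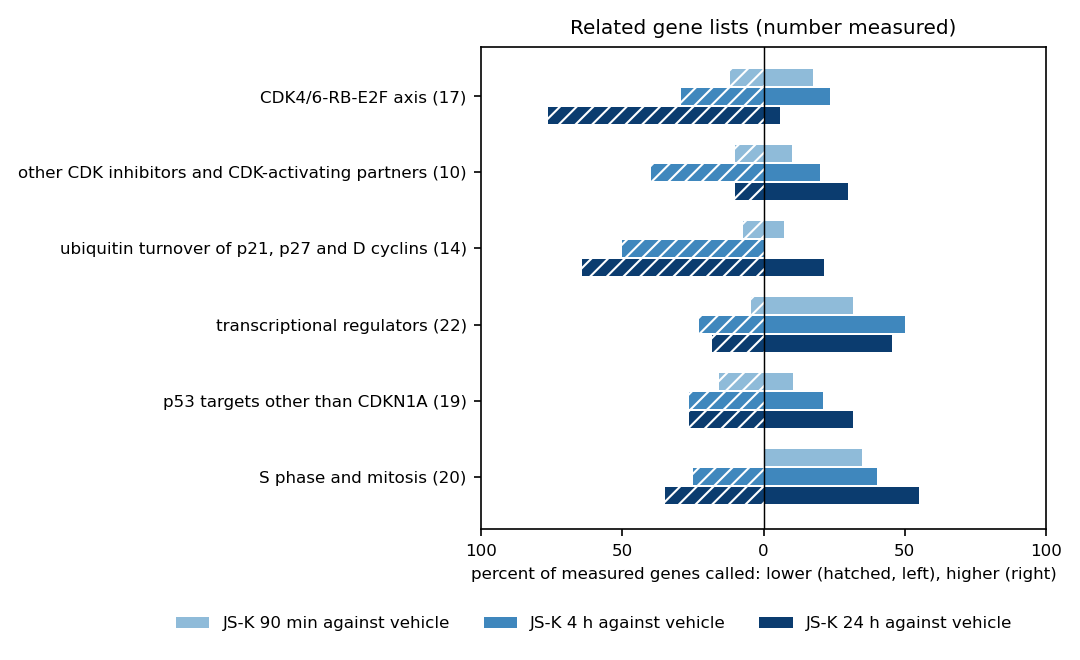
Percent of the measured genes of 6 related lists called higher (right) or lower (left, hatched) than vehicle at each JS-K time; the number measured stands beside each list. The axis of CDK4/6, RB and E2F turns to the left at 24 h, with 13 of 17 lower, while the p53 targets stay near balance, with 6 higher and 5 lower of 19.

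Markers of the myeloid lineage differed over the same arrays, though not all in the same direction. The summed level over 6 genes was 41.7 to 42.7 on the vehicle arrays, 42.8 to 43.7 at 90 min, 44.0 to 44.8 at 4 h and 49.0 to 49.1 at 24 h. CSF1R, the receptor of macrophage colony-stimulating factor, averaged 6.99 ± 0.29 at 24 h, against 4.19 ± 0.50 in vehicle (adjusted p = 9.31e-07), and ITGAM, the integrin CD11b, 9.13 ± 0.08 at 24 h, against 7.56 ± 0.05 in vehicle (adjusted p = 1.6e-08). SPI1, the factor PU.1, and LYZ, lysozyme, were also higher at 24 h (1.58, adjusted p = 2.11e-05, and 0.53, adjusted p = 0.00682). CD4 was lower at 90 min (−0.53, adjusted p = 0.0155) and at 4 h (−0.43, adjusted p = 0.0217) and not called at 24 h (0.22, adjusted p = 0.146). MPO passed at none of these times against vehicle, and ITGAM did not pass at 90 min (adjusted p = 0.93) or 4 h (adjusted p = 0.38). Their part in the differences of CDKN1A, CDKN2D, CCND2, CCND3 and CDK4 was not tested.

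The genes whose profile was most like that of each member were taken from 2652 genes with a mean of at least 4 and group means at least 1 log2 unit apart, by Pearson correlation over the 12 arrays. Arrays of a group share their treatment, so these values mostly follow the 4 group means and are a description. CDKN1A was closest to CLIP1 (r = 0.99), C5AR1, IER3, UBALD2 and EMILIN2, all 5 of which climbed at each time, and 151 genes had r over 0.95. C5AR1, the receptor of complement fragment C5a, averaged 3.09 in vehicle, 5.42 at 90 min, 7.49 at 4 h and 9.95 at 24 h. CCND3 was closest to MOB3A (r = 0.99), LMNA, HJURP, STING1 and ESPL1, out of 183 genes over 0.95. LMNA, which encodes lamins A and C, averaged 8.76, 9.55, 9.83 and 11.27 in the same order.

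CDKN2D was closest to DCTN2 (r = 0.99), CYSTM1, SAMD8, ARG2 and RHOC, each of which, like it, had its lowest mean at 90 min. ARG2, the mitochondrial arginase, averaged 4.41 in vehicle, 4.02 at 90 min, 5.04 at 4 h and 8.12 at 24 h. CDKN1C had no gene over 0.95, and its closest were IL2RB (r = 0.91), TICAM1, DNAAF9, P2RX7 and HSPA6. CCND2, among 322 genes over 0.95, was closest to NXT1 (r = 0.99), ZMYM4, TMEM177, DNAJA3 and RRP1B, of which TMEM177 averaged 7.91, 7.85, 6.01 and 4.34 in time order. CDK4, among 346 genes, was closest to TMEM147 (r = 0.996), GTF3A, RUVBL1, CDC6 and AHCY. The helicase gene RUVBL1 averaged 9.99, 9.99, 9.72 and 8.36 in time order, and like CDK4 lost most of its level between 4 h and 24 h.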

How the data were processed

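RNA of U937 cells was measured on 12 arrays, 4 groups of 3. The authors deposited log2 values per probe set, made with GCRMA in Affymetrix Expression Console, per the submitters' processing notes; the version is not given in the sources used here. Per the labels' protocols, 200 ng of RNA was labelled from random primers. The table held 54675 probe sets, 41097 of them naming 1 gene symbol and 1801 naming several, with 11777 unnamed. Each of 19775 genes was read from its brightest probe set on average, with no filter on level. CDKN2C is not listed with a symbol and was not analysed here. Gene names and promoter windows are from RefSeq, GRCh38.p14.

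A linear model of the log2 values of all 12 arrays was fitted in R 4.3.3 with limma 3.58.1, using eBayes with a trend (8 residual and 3.97 prior degrees of freedom), and p-values were adjusted by Benjamini-Hochberg over the genes of each of 5 comparisons. The procedure was tested on simulated data. The labels call the replicates biological but give no more on their origin, so the p-values rest on the spread among the samples as labelled. The number of arrays limits the precision, and no array columns were identical. Named genes are the members and genes drawn from up to 4 called genes with the largest change per list and time against vehicle, and the 5 closest profiles of members whose group means span at least 1. Members and lists were chosen with earlier results of these data known. Correlations between deviations of same-numbered arrays were −0.13 to 0.37, over 0.1 in 7 of 18 pairs. For 90 min and vehicle they were 0.22, 0.23 and 0.13, so in that comparison the numbers were taken to pair the arrays. In the other comparisons at least 1 pair was under 0.1. A fit with the replicate block was run for all as an alternative. The values in the Results, those of 90 min against vehicle included, are from the fit without that block and do not use this pairing. The block puts the same replicate effects on all 12 arrays. It is thus no paired test of 90 min against vehicle alone, and none was run. Other alternatives were a constant spread, filters on dim genes, other uses of probe sets, quantile normalization, array medians subtracted, array weights, a fit of each comparison on its own 6 arrays, limma's treat with a minimum fold of 1.5, and leaving out each array in turn. Leaving out 4 h replicate 2 where a comparison does not use it was added after seeing the data. Figures were drawn with matplotlib 3.10.9.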

Additional observations from a re-analysis of the deposited data

How the results depend on the processing

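Over 45 pairs of gene and comparison and 23 settings, 773 alternative values were computed. Of these 694 kept their direction and their side of the threshold, 47 lost a call, 21 gained one and 11 turned sign, none of the last among the 24 called pairs. With the replicate block, 2, 6, 8, 3 and 6 genes were called at 90 min, 4 h and 24 h against vehicle, at 4 h against 90 min and at 24 h against 4 h, against 2, 6, 7, 3 and 6 without it. The block changed only the call of CDKN1B at 24 h (adjusted p = 0.0498). At 90 min 1 gene, CDKN1A, was called with probe sets averaged per gene, with array medians subtracted and against a fold of 1.5. At 4 h 2 genes were called against a fold of 1.5 (CDKN1A and CCND2) and 3 with the 6 arrays alone, and at 4 h against 90 min 1 was called against a fold of 1.5. Against that fold the 24 h calls of CDKN1C (adjusted p = 0.252) and CDK6 (adjusted p = 0.856) also ended. With 1 array left out, the counts ranged from 1 to 3 at 90 min, 3 to 7 at 4 h, 6 to 9 at 24 h and 5 to 7 at 24 h against 4 h, and were 3 throughout at 4 h against 90 min. The 3 at 90 min and the 9 at 24 h came only from leaving out 4 h replicate 2. Neither comparison uses that array, and the run was added after seeing the data. Without it the highest counts were 2 at 90 min and 7 at 24 h. The values that turned sign were all near 0. CDKN1B at 4 h against vehicle was −0.0246 with array medians subtracted, −0.0373 with array weights, and −0.003 to 0.1886 with 1 array left out. At 4 h against 90 min CDKN1B was 0.01 after quantile normalization and −0.1457 to 0.0459 with 1 array left out. CCND1 at 24 h against vehicle was −0.0073 with array medians subtracted, and at 24 h against 4 h it was 0.0108 with array weights and −0.0981 to 0.0159 with 1 array left out. At 4 h against 90 min CDK4 was 0.0418 with array weights and −0.1939 to 0.022 with 1 array left out, and CCND3 was −0.0217 to 0.2214. The causes were not tested. Array weights came from limma's gene-by-gene method. Signal near background limits CCND1 and most probe sets of CDKN1C and CCND2.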
